A study of Mus musculus with 3 samples.

Results

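Reelin signalling was followed through 4 genes: the secreted ligand Reln, the receptors Vldlr and Lrp8, and the intracellular adaptor Dab1. The genes were taken by symbol from the 32531 symbols of each deposited count table. A mean of at least 1 CPM (counts scaled to the library total) was reached by 4 of 4, and by 12456 of the symbols with a known exon length. Dab1 stood highest in TPM, the unit of counts divided by exon length and brought to a common library total. Reln came next on merged exons, and the receptors were lowest, with Vldlr and Lrp8 not told apart beyond the spread of the libraries.

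The 3 libraries formed 1 group and are called replicates 1, 2 and 3. They hold ribosome-bound RNA immunopurified with anti-EGFP antibodies from whole cerebral cortex. The mice were adult and of the genotype Htr3a-Cre (NO176)::Rosa26-LSL-EGFP/Rpl10a. In them, Cre is driven by regulatory sequence of Htr3a, a serotonin receptor gene of many cortical interneurons. Cells that have made Cre lose a stop cassette at Rosa26 and then carry the ribosomal protein Rpl10a fused to EGFP, so a cell can be tagged that no longer makes Cre. Unpurified cortex RNA was not analysed here, and each comparison sets genes against one another within the same libraries. Whether separate animals gave the replicates is not stated in the labels, so p-values cover no more than the spread among these 3 samples, which may be technical.

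Reelin is an extracellular glycoprotein best known for guiding the layering of the cortex, where it is first made by Cajal-Retzius cells and later by GABAergic interneurons. It binds Vldlr and Lrp8 (also called ApoER2), members of the lipoprotein receptor family, and clusters them. The cytoplasmic tails of both receptors hold an NPxY motif to which the PTB domain of Dab1 docks. Src family kinases, chiefly Fyn, then phosphorylate tyrosines of Dab1, which recruit further adaptors and kinases, and phosphorylated Dab1 is later degraded. In the adult brain the pathway is known for effects on synapses.

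Gene counts summed to 13951332 to 14461053 per library. GABAergic markers stood high, with 5 of 5 at 100 TPM or more in every library. Excitatory neuron markers were present too, with 8 of 8 at 10 TPM or more and a summed level of 3291 to 3690 TPM, led by Camk2a. Endothelial markers summed to 1.95 to 2.90 TPM, with Cldn5 at 0 in at least 1 library, and microglial markers to 9.56 to 14.8 TPM, with C1qa at 0 likewise. Astrocyte markers summed to 558 to 675 TPM and oligodendrocyte markers to 218 to 367 TPM, none of them at 0. Slc1a2 and Aldoc, averaging 370 and 199 TPM, made up most of the astrocyte sum. The other astrocyte markers averaged from 1.95 TPM for Gja1 to 12.6 TPM for Slc1a3. In such bulk RNA, fewer cells of a type and less RNA per cell cannot be told apart, and the part of each cell type in the levels of the Reelin genes was not tested.

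The ligand gene Reln lies on the minus strand of chromosome 5, from 21884454 to 22344702 in GRCm38, and received 4447, 3413 and 3886 counts in replicates 1, 2 and 3. Its level was 68.0, 51.1 and 56.7 TPM (58.6 ± 8.60, SD, n = 3). Replicate 1 was the highest, and all values lay above those of both receptors in the same library. Of the 12456 genes, 73.1% had a lower mean level in TPM than Reln, and 94.5% were lower in CPM, which is not divided by length. The Reln gene model is large: merged over 15 annotated transcripts, its exons cover 23738 nt, against 11699 nt for the longest transcript and 10383 nt of coding sequence. On the longest transcript the level was 90.1 ± 13.3 TPM and on coding length 33.9 ± 4.87 TPM (SD, n = 3 each). Gm10475, annotated on the opposite strand, overlaps 1.04% of the Reln exons, and no other gene does.

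**Figure D1:**
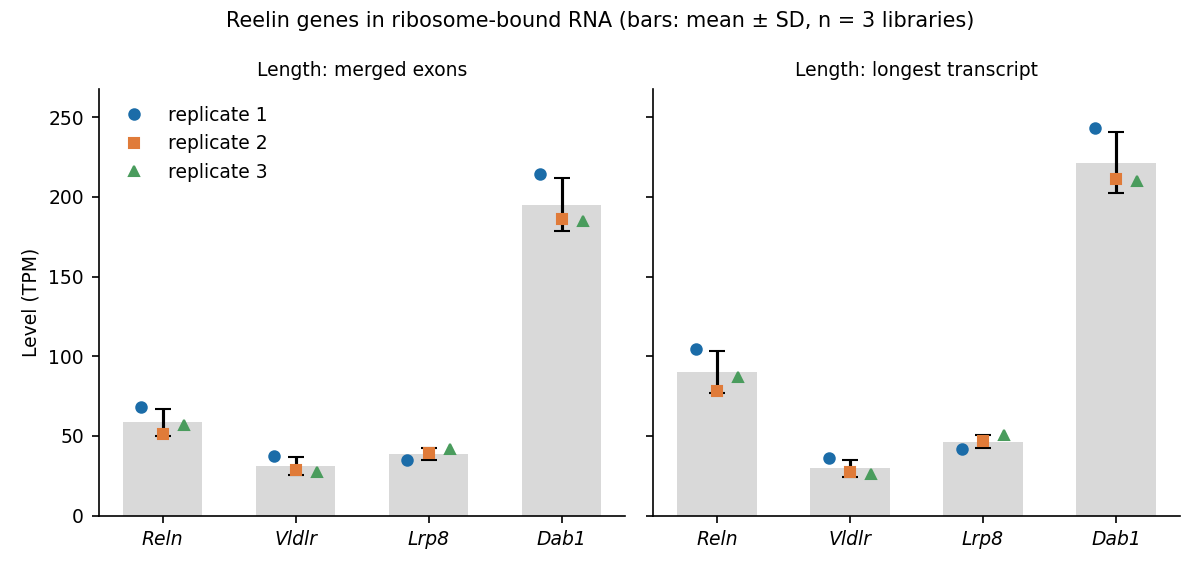
Levels of Reln, Vldlr, Lrp8 and Dab1 in TPM (vertical axis, from 0), with exon length taken from merged exons (left) or from the longest transcript (right). Points are the 3 libraries, bars the mean and whiskers the SD; Dab1 stands at 185 to 214 TPM on merged exons, above every value of the other genes, and Reln averages 90.1 TPM on the longest transcript, against 58.6 TPM on merged exons.

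The receptors were close to each other. Vldlr, on the plus strand of chromosome 19 from 27216484 to 27254231, received 1042, 810 and 788 counts, a level of 37.5, 28.6 and 27.1 TPM (31.1 ± 5.65, SD, n = 3). Lrp8, on the plus strand of chromosome 4 from 107802261 to 107876840, received 1015, 1160 and 1272 counts, a level of 35.0, 39.2 and 41.9 TPM (38.7 ± 3.46, SD, n = 3). The ranges overlapped, and the order was not the same in every library, with Vldlr slightly above Lrp8 in replicate 1 and below it in replicates 2 and 3. Vldlr accordingly made up 51.7%, 42.2% and 39.3% of the summed TPM of both receptors, while that sum moved little, between 67.8 and 72.6 TPM. In mean TPM, Vldlr lay above 57.9% and Lrp8 above 63.6% of the 12456 genes. No other annotated gene shares exon sequence with either receptor.

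The coding stretch around the docking motif for Dab1 is printed for both receptors, since it is the sequence by which they pass on the signal. Each stretch is 48 bases of GENCODE M21 on GRCm38, 5′ to 3′ on the plus strand, and capitals mark the codons of the NPxY motif and of the residues just before it. They lie at chr19:27247919-27247966 for Vldlr and chr4:107869040-107869087 for Lrp8.
Vldlr: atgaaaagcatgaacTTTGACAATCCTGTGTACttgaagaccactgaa
Lrp8: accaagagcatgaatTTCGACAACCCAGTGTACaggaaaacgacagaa
Vldlr and Lrp8 share 36 of these 48 bases and 15 of the 18 capital ones. The capital codons are translated alike in both, so these differences are silent there. The motif is in 3 of 5 annotated coding transcripts of Vldlr and 5 of 5 of Lrp8. A count per gene does not separate transcripts with the motif from those without it.

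Dab1, the adaptor, was the most abundant of the set per length. It lies on the plus strand of chromosome 4 from 103619359 to 104744844 and received 4672, 4145 and 4224 counts, a level of 214, 186 and 185 TPM (195 ± 16.6, SD, n = 3). The lowest library of Dab1 was above the highest of each other gene in the set, and 92.2% of the 12456 genes had a lower mean level in TPM. Its merged exons cover 7908 nt and are shared with no other annotated gene. The stretch shown holds tyrosines that Src family kinases phosphorylate, 78 coding bases spliced from chr4:104681643-104681663 and chr4:104688383-104688439 on GRCm38, plus strand, with capitals for the codons of a pair of Tyr-x-Val-Pro motifs.
Dab1: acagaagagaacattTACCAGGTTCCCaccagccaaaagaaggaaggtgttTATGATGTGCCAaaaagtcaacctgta
These bases are joined in this way in 2 of 5 annotated coding transcripts of Dab1. The deposited counts do not show which of these transcripts carried the reads.

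To ask which of the 4 levels differed, the within-library difference in log2(TPM + 0.1) between a member and every other gene was fitted with limma and adjusted by the Benjamini-Hochberg method over 12455 genes, with a threshold of 0.05. Most genes differ from any given gene in such a fit: 87.0% were called different from Reln, 80.7% from Vldlr, 87.7% from Lrp8 and 95.4% from Dab1. A call therefore says little by itself, and the size of a difference says more. The values of 1 member enter all differences of its fit, which makes the moderated p-values somewhat too small, and those of a fit without moderation are given for the pairs of members and for several other genes whose call they change.

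Dab1 exceeded each of the other 3 genes in 3 of 3 libraries. The log2 difference in TPM of Reln minus Dab1 was -1.66, -1.86 and -1.70, on average -1.74 (95% interval -2.08 to -1.40), a 3.34-fold gap (limma, adjusted p = 1.45e-06, and 0.0128 without moderation). Vldlr minus Dab1 averaged -2.66 on that scale, a 6.31-fold gap (limma, adjusted p = 6.85e-06, and 0.0121 without moderation). Lrp8 minus Dab1 averaged -2.33, a 5.03-fold gap (limma, adjusted p = 6.70e-08, and 0.0141 without moderation). The receptor gaps to Dab1 were called under every length definition tried. That of Reln was not: without a correction for length it shrank to -0.16 (limma, adjusted p = 0.276), the counts of Reln and Dab1 being nearly equal.

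Reln exceeded both receptors on merged exons, but not on each length. Reln minus Vldlr was a log2 difference in TPM of 0.85, 0.84 and 1.06, on average 0.92 (95% interval 0.50 to 1.33), or 1.89-fold (limma, adjusted p = 0.000821, and 0.0181 without moderation). With coding length it was 0.17 (limma, adjusted p = 0.394). Reln minus Lrp8 was 0.95, 0.38 and 0.44, on average 0.59 (95% interval 0.16 to 1.02; limma, adjusted p = 0.0152), a call lost without moderation (adjusted p = 0.102) and without replicate 3 (0.67; adjusted p = 0.0762). With coding length it turned to -0.022. The place of the ligand above Vldlr thus holds for merged exons and the longest transcript. Above Lrp8 it was called on the longest transcript, while on merged exons the call rests on the moderation and on replicate 3. Neither place is settled on coding length.

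Vldlr minus Lrp8 was a log2 difference in TPM of 0.10, -0.45 and -0.63, on average -0.33 (95% interval -0.82 to 0.16). This difference missed the threshold (limma, adjusted p = 0.181, and 0.309 without moderation). The interval leaves room for Lrp8 to be somewhat higher. With the longest transcript as length the difference was -0.65 (limma, adjusted p = 0.0198). Without replicate 1 it was -0.54 (limma, adjusted p = 0.00142). That fit has fewer libraries and takes its spread largely from other genes through the moderation, so its p-value says little. On merged exons the receptors are thus neighbours in the order of levels that did not differ beyond their spread. For the neighbours Reln and Lrp8 the call was lost without moderation. It was lost too without replicate 3, although the difference was then larger (0.67), with fewer libraries left.

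**Figure D2:**
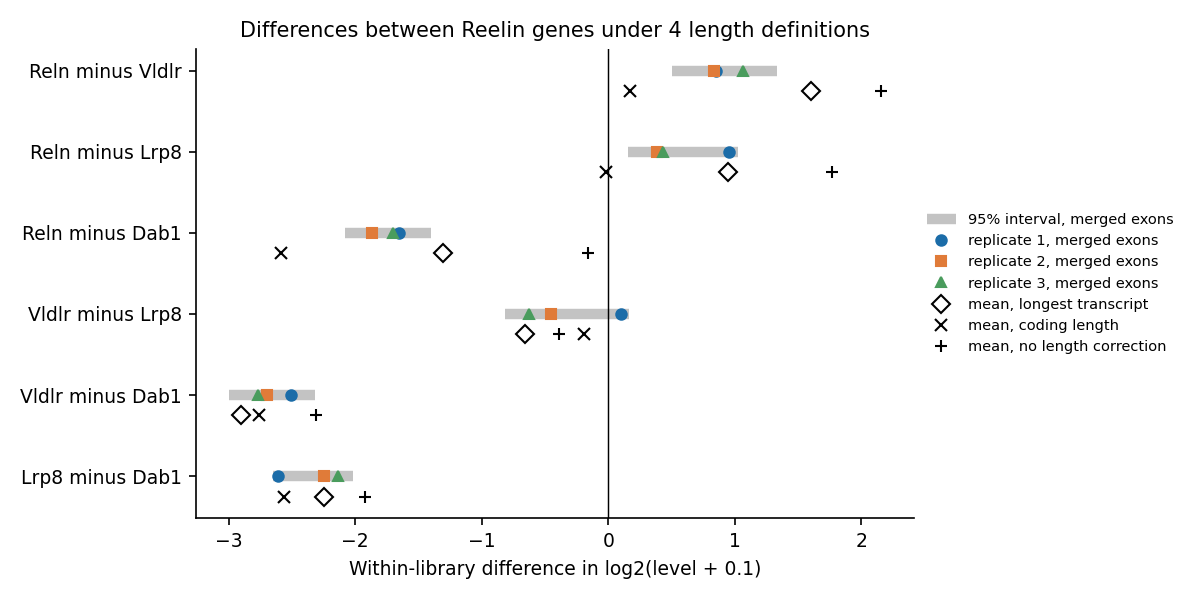
Within-library differences in log2(level + 0.1) for the 6 pairs of Reelin genes (horizontal axis; the first-named gene minus the second). Coloured points are the libraries and grey bars the 95% interval on merged exons, black symbols the mean difference with other lengths or none; Reln minus Lrp8 reaches from -0.022 with coding length to far above 0 without length correction, while both receptors stay below Dab1 throughout.

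The libraries differed more than counting error in all 4 genes. Counts of each gene were set against those predicted by TMM-scaled library sizes in a chi-square test, in which 74.3% of 12949 genes were called at an adjusted p below 0.05, so being called is the common case. Reln gave a chi-square of 196 (adjusted p = 5.59e-42), Dab1 86.1 (adjusted p = 1.55e-18), Vldlr 68.3 (adjusted p = 9.23e-15) and Lrp8 12.6 (adjusted p = 0.00317). Relative to the size of the level the spread was ordinary or small. The coefficient of variation of scaled counts was 15.95% for Reln, 19.8% for Vldlr, 7.44% for Lrp8 and 10.02% for Dab1, against a median of 17.9% over the tested genes. Counting error alone would have given 1.51% to 3.36%. With total gene counts as the scale, the chi-square was 110 for Reln, 42.1 for Vldlr, 28.8 for Lrp8 and 29.3 for Dab1. DESeq2 size factors gave 221, 75.5, 9.86 and 104 in that order. Each gene stayed called, but how far Lrp8 and Dab1 differ in spread depends on the scaling.

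Much of this spread came with 1 library. Replicate 1 held the highest scaled count of Reln, Vldlr and Dab1 and the lowest of Lrp8. Without it, the chi-square fell to 1.73 for Vldlr (adjusted p = 0.291), 1.76 for Lrp8 (adjusted p = 0.286) and 0.789 for Dab1 (adjusted p = 0.494), while Reln remained called at 15.2 (adjusted p = 0.000495). For Lrp8 the call was also lost without replicate 3 (chi-square 4.84, adjusted p = 0.0508). Pvalb, a marker of fast-spiking interneurons, was lowest in replicate 1 too, at 48.4 TPM against 105 and 110.4 TPM in replicates 2 and 3. What sets replicate 1 apart was not tested.

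**Figure D3:**
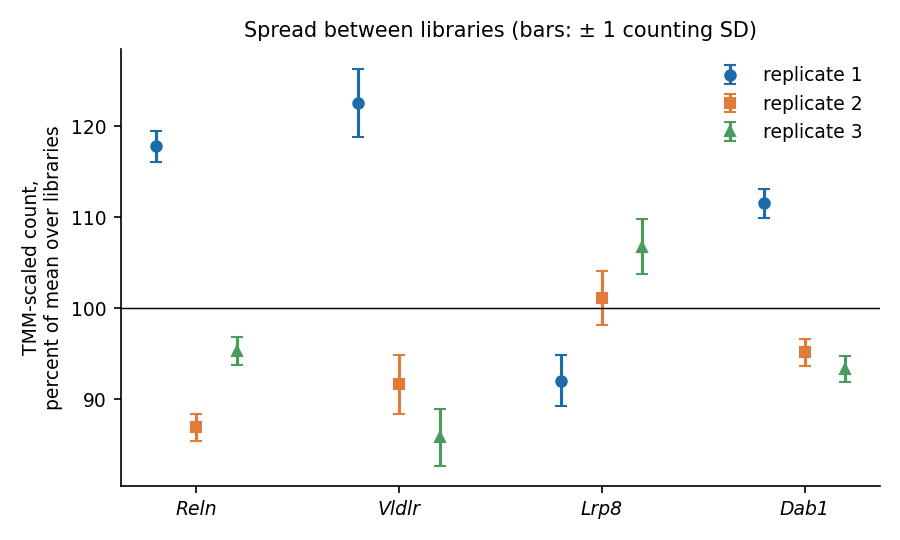
TMM-scaled counts of the 4 Reelin genes as percent of their mean over the 3 libraries (vertical axis, not starting at 0), with whiskers of 1 counting SD. Replicate 1 is above the mean for Reln, Vldlr and Dab1 and below it for Lrp8, and replicates 2 and 3 lie within a few counting SDs of each other in all but Reln.

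Around the members, 69 other genes of the pathway were described by role, and 64 of them reached 1 TPM in every library. That is 92.8%, against 95.7% of the 12456 genes, and their median was 31.6 TPM against 22.3 TPM. The proteases that cut Reelin were all below it. Of 6 such genes, 6 were lower than Reln in its fit, beside 66.0% of all genes, and their median was 3.22 TPM. Adamts3, the main Reelin protease known from mouse cortex, led them with 12.1, 13.5 and 12.1 TPM (12.6 ± 0.833, SD, n = 3), and Reln minus Adamts3 came to 2.20 on the log2 scale (SD 0.29; limma, adjusted p = 4.97e-06). Plat, the gene of tissue plasminogen activator, followed at 7.02 ± 1.42 TPM and Adamts2 was lowest at 1.49 ± 0.444 TPM.

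Other proteins that have been tied to Reelin or its receptors at the membrane were spread more widely. Of 7, 4 were lower and 1 higher than Reln, beside 66.0% and 20.9% of all genes, and 2 were not called. The higher one was App, the amyloid precursor protein, at 229 ± 12.1 TPM (log2 difference of Reln minus App -1.97; limma, adjusted p = 9.01e-07). The ephrins Efnb3, at 57.0 ± 8.29 TPM, and Efnb2, at 46.9 ± 9.38 TPM, did not differ from Reln beyond the threshold, with log2 differences of Reln minus each of 0.04 and 0.33 (limma, adjusted p = 0.853 and 0.153). On the longest transcript both differences passed it, at 1.06 for Efnb3 and 0.83 for Efnb2, while on coding length they turned to -0.41 and -1.24, the second past the threshold. The integrin subunits Itgb1 and Itga3, at 14.3 ± 1.89 and 6.85 ± 2.67 TPM, were lower than Reln.

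Among the listed genes of the lipoprotein receptor family, Lrp1 and Sorl1 were the closest to Vldlr and Lrp8 on merged exons. Of 7 other members, 5 could be tested, of which 3 were lower than each Reelin receptor and 2 were not called. Against Vldlr, the call of Lrp6, a Wnt co-receptor, was lost without moderation (adjusted p = 0.0744). Of all genes, 47.9% were lower and 32.8% higher than Vldlr, and 57.2% lower and 30.5% higher than Lrp8. Lrp1, a large endocytic receptor, stood at 29.6, 27.8 and 37.2 TPM, and its log2 differences were -0.03 from Vldlr and 0.30 from Lrp8 (limma, adjusted p = 0.917 and 0.0844). Sorl1, a sorting receptor, stood at 39.1, 39.8 and 38.0 TPM, with log2 differences of -0.34 from Vldlr and -0.01 from Lrp8 (limma, adjusted p = 0.129 and 0.935). These signs are of the Reelin receptor minus the other gene. The order depends on length. On the longest transcript Lrp8 was higher than both, by 0.71 and 0.57. On coding length each receptor was higher than both, Vldlr by 1.54 and 0.83 and Lrp8 by 1.73 and 1.02. Without length correction Lrp1 was higher than both receptors, at -0.84 from Vldlr and -0.45 from Lrp8, and Sorl1 higher than Vldlr, at -0.51. Lrp2, the receptor megalin, had 4 counts in replicate 2 and 0 in the others.

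Of the chaperones of these receptors, Lrpap1 was higher than both on merged exons. Lrpap1, which keeps ligands off receptors of the family in the secretory pathway, stood at 91.1, 95.8 and 107 TPM, above Vldlr by 1.67 and above Lrp8 by 1.34 on the log2 scale (limma, adjusted p = 0.000149 and 1.61e-06, for Vldlr and Lrp8 minus Lrpap1). Without length correction neither difference passed the threshold, at -0.38 for Vldlr and 0.01 for Lrp8. Mesd, a folding factor for the family, was uneven. It stood at 28.7 TPM in replicate 1, below both receptors, and at 74.3 and 71.3 TPM in replicates 2 and 3. On merged exons it was called different from neither receptor. On coding length it was called higher than Vldlr, with Vldlr minus Mesd at -1.65 (limma, adjusted p = 0.00411), against 0.06 without length correction. Mylip, the ubiquitin ligase that sends these receptors to degradation, stood at 13.7 ± 2.75 TPM and was lower than both, with the call against Vldlr lost without moderation (adjusted p = 0.0803).

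**Figure D4:**
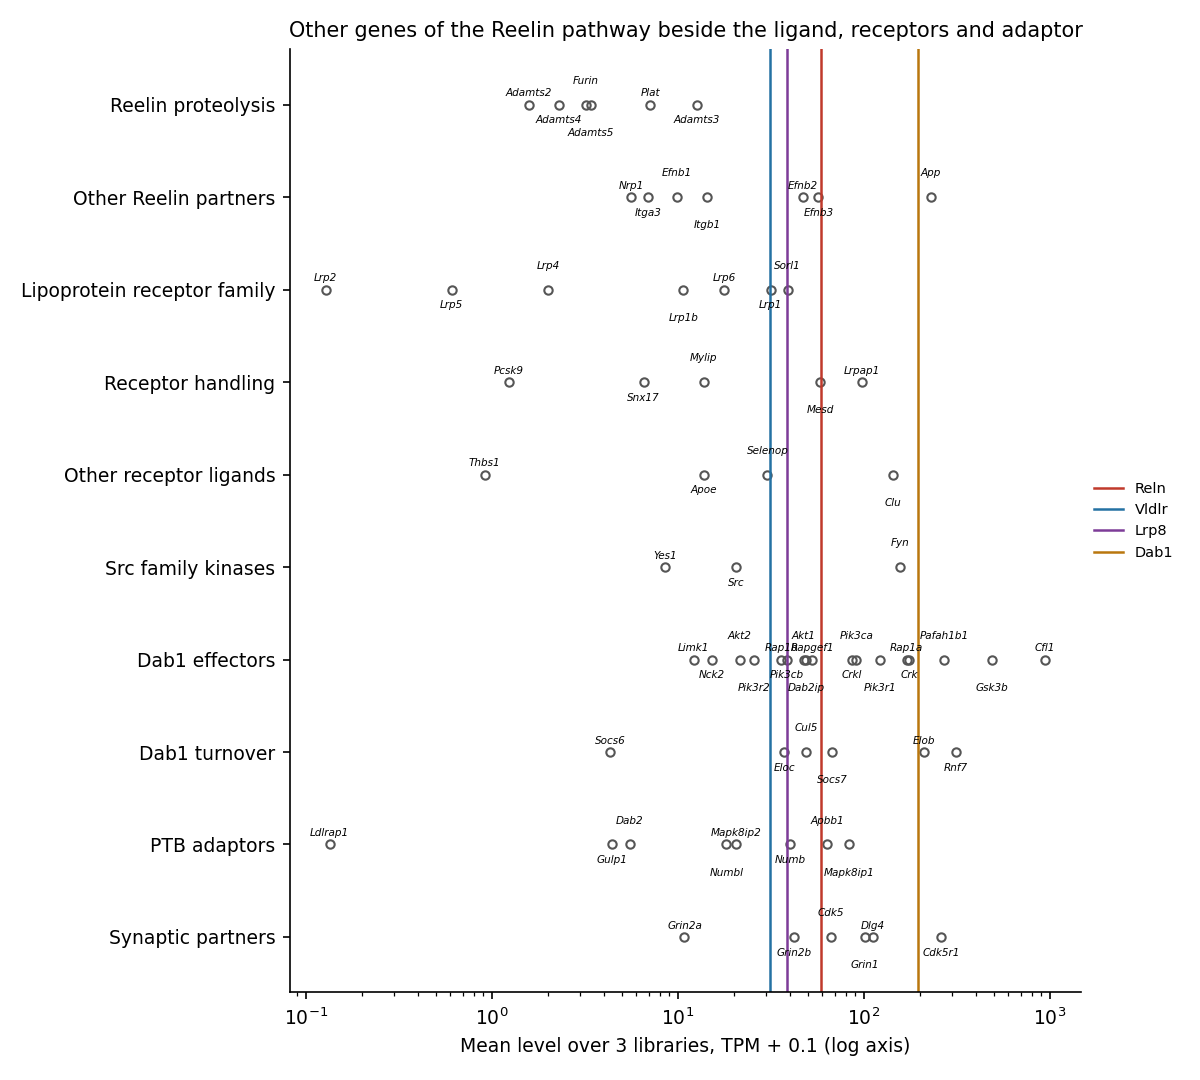
Mean level of each listed pathway gene over the 3 libraries, as TPM + 0.1 on a log axis, in rows by role; vertical lines mark Reln, Vldlr, Lrp8 and Dab1. All 6 Reelin proteases lie left of every line, the lipoprotein receptor family ends at the receptor lines, and the Dab1 effectors reach from 12.1 to 945 TPM on both sides of Dab1.

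Dab1 was the highest of the tested adaptors with a PTB domain. Of 8 others, 7 could be tested and 7 were lower than Dab1, beside 89.6% of all genes. Its closest relative Dab2 had 7.11, 4.69 and 4.53 TPM, and Dab1 minus Dab2 came to 5.17 on the log2 scale (SD 0.24; limma, adjusted p = 9.68e-06). The highest was Mapk8ip1, a scaffold of JNK signalling, at 83.0 ± 26.5 TPM, for which the call was lost without moderation (adjusted p = 0.0777). Of the 7 calls, 5 held without moderation.

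The kinase Fyn was the nearest of the listed Src family kinases to its substrate Dab1 in level. It stood at 158, 160.4 and 153 TPM (157 ± 3.83, SD, n = 3), and Dab1 minus Fyn came to 0.31 on the log2 scale of TPM (SD 0.12; limma, adjusted p = 0.0219, and 0.0484 without moderation). The other Src family kinases that act on Dab1 were much lower, Src at 20.6 ± 1.09 TPM and Yes1 at 8.50 ± 1.42 TPM, with log2 differences of 3.24 and 4.51. All of these gaps kept their direction under every length definition, but that of Fyn widened to 0.60 on the longest transcript, 1.05 on coding length and 1.17 without length correction.

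Of 17 genes that act after Dab1, 12 were lower and 3 higher than Dab1, beside 89.6% and 5.73% of all genes, with a median of 55.2 TPM. The higher ones were Cfl1, the actin-severing protein cofilin, at 945 ± 98.1 TPM, Gsk3b, a kinase of tau, at 487 ± 56.1 TPM, and Pafah1b1, the dynein partner LIS1, at 270 ± 30.5 TPM. On the longest transcript the call of Pafah1b1 was lost, with a log2 difference of Dab1 minus Pafah1b1 of -0.05. Crk and Rap1a, an adaptor that binds phosphorylated Dab1 and a small GTPase downstream of it, stood at 176 ± 11.1 and 170 ± 15.3 TPM and were not called different from Dab1 (limma, adjusted p = 0.215 and 0.0681). Rap1a was called without moderation (adjusted p = 0.0156), and on the longest transcript both were lower than Dab1, Crk by 0.59 and Rap1a by 0.67. Limk1, a kinase that acts on cofilin, was lowest at 12.1 ± 1.92 TPM.

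Genes for the degradation of phosphorylated Dab1 included 4 of 6 lower than Dab1, beside 89.6% of all genes, and 2 not called, with a median of 58.2 TPM. Cul5, the scaffold of the ubiquitin ligase, had 51.5, 46.8 and 48.9 TPM, and of the substrate adaptors Socs7 had 67.4 ± 8.85 TPM and Socs6 4.24 ± 1.74 TPM. Elob, an adaptor subunit of the ligase, stood at 212 ± 23.5 TPM and was not called different from Dab1. The log2 difference was -0.11 (limma, adjusted p = 0.231, and 0.0447 without moderation). Elob was higher on the longest transcript, at -0.80, but far lower without length correction, at a mean of 58.4 CPM against 305 CPM for Dab1. The RING subunit Rnf7 was uneven, at 165 TPM in replicate 1 and 407 and 372 TPM in replicates 2 and 3.

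Reln was then set beside interneuron markers, since it is known as a product of neurogliaform and Sst cells. Of 7 neurogliaform markers, 5 were higher than Reln, beside 20.9% of all genes, and 2 were not called. Without moderation 3 of these calls held, those of Id2 and Cplx3 being lost (adjusted p = 0.125 and 0.137). With the longest transcript as length, 3 were higher and 2 lower. Without length correction Reln was above all of them but Npy, by 0.73 for Nxph1 up to 2.63 for Id2 on the log2 scale. On coding length Reln was below each, with differences from -0.82 for Sv2c to -5.54 for Npy. The place of Reln beside this list thus depends on length. Sv2c, a synaptic vesicle protein, had 63.5, 44.8 and 51.6 TPM, and Ndnf, a secreted factor, 61.6, 49.6 and 38.7 TPM. On merged exons these were the nearest to Reln in level of the 141 listed genes. Their mean absolute log2 difference over the 3 libraries was 0.14 for Sv2c and 0.24 for Ndnf. Rapgef1, an exchange factor for Rap1, followed at 0.25. Reln minus Ndnf was not called on merged exons (limma, adjusted p = 0.234), and its sign depends on length, at 1.26 on the longest transcript and -1.13 on coding length. Lamp5, a membrane protein of neurogliaform cells, stood above Reln in 3 of 3 libraries at 234 ± 29.9 TPM (limma, adjusted p = 1.53e-06), but Reln minus Lamp5 was 1.01 on the log2 scale of CPM. The neuropeptide genes Npy and Sst, both with short transcripts, exceeded Reln by far more, with log2 differences of Reln minus each of -5.78 and -7.14, or -0.39 and -2.10 without length correction. Of 6 markers of Sst cells, 5 could be tested, and 2 were lower and 2 higher than Reln, beside 66.0% and 20.9% of all genes. Besides Sst the higher one was Elfn1, a synaptic organiser, at -3.02, and the lower ones were Nos1, a nitric oxide synthase, at 2.23 and Grin3a, a glutamate receptor subunit, at 0.68, or 0.03 on coding length. The calcium-binding protein Calb1 was not called (0.10; limma, adjusted p = 0.638).

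Against Htr3a, at 655, 582 and 569 TPM, Reln minus Htr3a stood at -3.37 on the log2 scale (SD 0.13; limma, adjusted p = 3.28e-08), and 0.14 without length correction. Pvalb at 88.1 ± 34.4 TPM was not called different from Reln (-0.51; limma, adjusted p = 0.104), but was higher on coding length, at -0.97, and lower without length correction. Cajal-Retzius markers, in contrast, were low. Their 6 genes summed to 15.2 to 18.6 TPM with none at 0, from Ebf3 at 7.07 ± 1.08 TPM down to Lhx1, which had 18 counts in replicate 1 and 1 count in each of the others. Of them 4 could be tested, and 4 were lower than Reln, beside 66.0% of all genes. The level of Reln in any one cell type cannot be read from these libraries.

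The receptors and the adaptor were also compared with markers of cells outside the GABAergic class. Nearness in level was taken on merged exons, and it depends on length. The myelin genes Mobp and Mbp were among the 3 listed genes nearest to Vldlr. Their mean absolute log2 differences in TPM were 0.19 and 0.28, beside Grin3a, a glutamate receptor subunit of Sst cells, at 0.24. With coding length Mobp and Mbp averaged 100.1 and 67.7 TPM, against 30.2 TPM for Vldlr. Nearest to Lrp8 were Pik3cb, a lipid kinase subunit, at 0.06, the ubiquitin ligase subunit Eloc at 0.08, and Sorl1 at 0.11. Nearest to Dab1 were Aldoc, a glycolytic enzyme used as an astrocyte marker, at 0.03, Elob at 0.11, and Nxph1, a neurexin ligand of neurogliaform and Sst cells, at 0.16. Without length correction Aldoc averaged 128 CPM, against 305 CPM for Dab1. The excitatory marker Slc17a7, a vesicular glutamate transporter, was not called different from Dab1, at 196 ± 56.1 TPM (log2 difference 0.03; limma, adjusted p = 0.895), but was lower than it without length correction, by 0.58. Of 8 excitatory markers, 7 were higher than each receptor, beside 32.8% of all genes for Vldlr and 30.5% for Lrp8. Most astrocyte markers were far lower than Vldlr, with 5 of 7 called, beside 47.9% of all genes, among them Aqp4 at 10.07 ± 2.78 TPM, while Slc1a2 and Aldoc were higher.

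**Figure D5:**
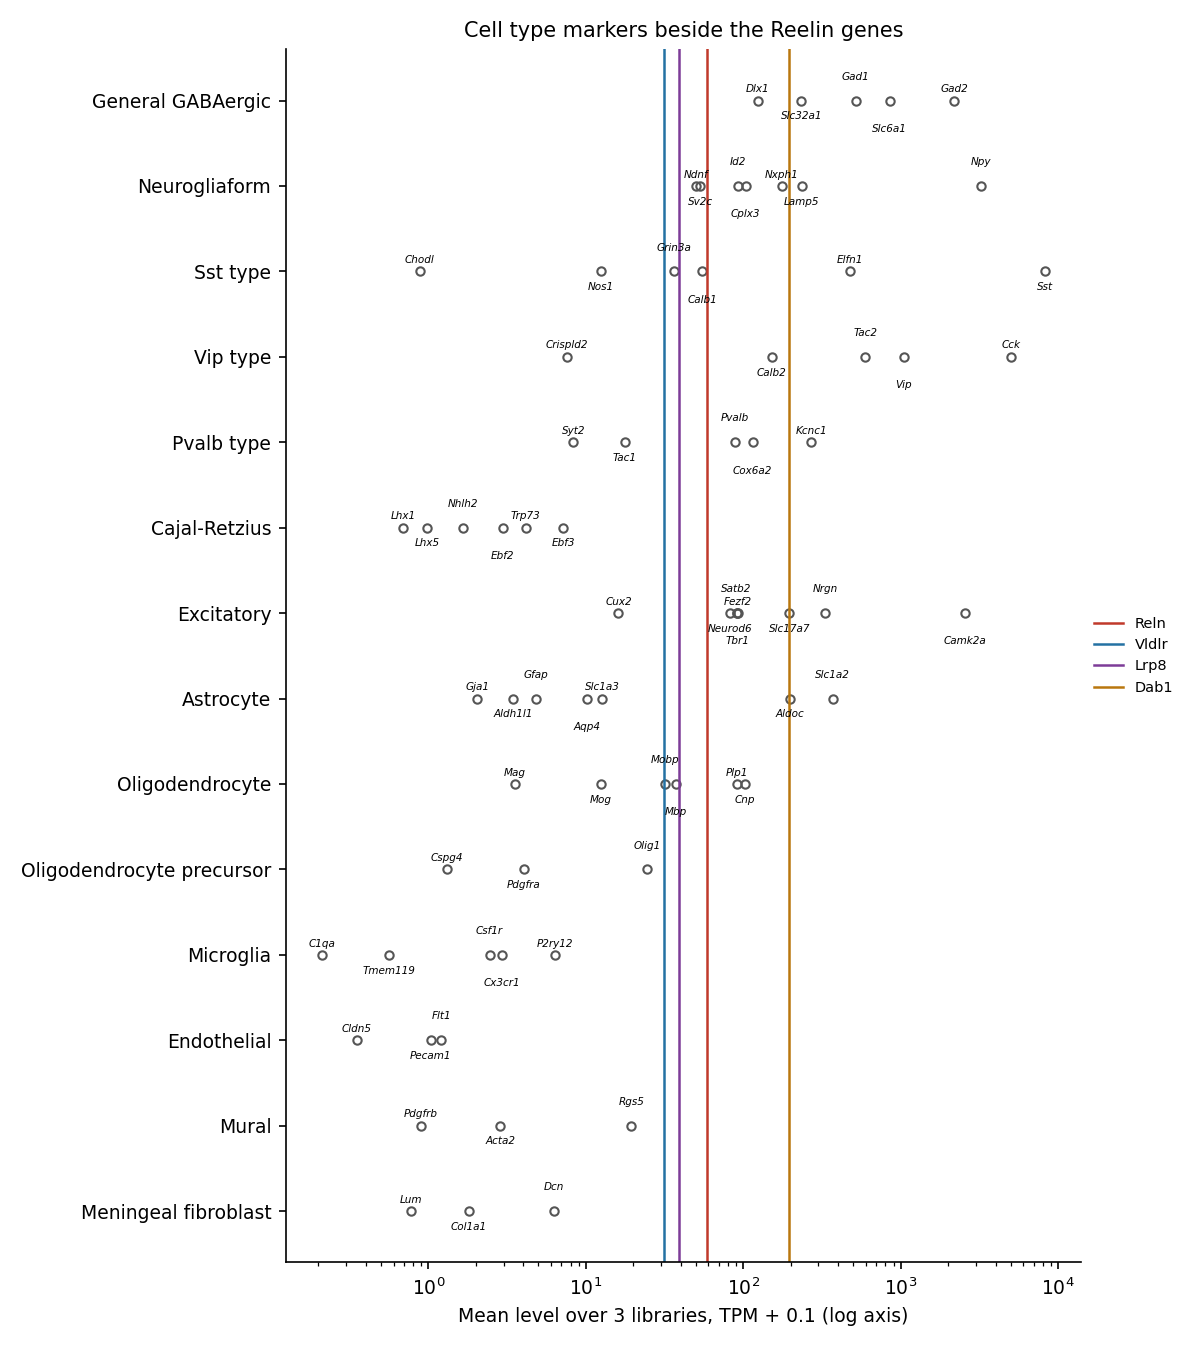
Mean level of each cell type marker over the 3 libraries, as TPM + 0.1 on a log axis, in rows by cell type; vertical lines mark Reln, Vldlr, Lrp8 and Dab1. GABAergic markers lie right of the Reln line, Cajal-Retzius, microglial, endothelial and meningeal markers left of all lines, and excitatory markers mostly between Reln and the highest levels.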

How the data were processed

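RNA bound to EGFP-tagged ribosomes was sequenced in 3 libraries of 1 group. The authors deposited raw counts of reads for each gene symbol as whole numbers. STAR 2.0.0e, HTSeq and mm10 stand in the submitters' processing notes without roles, and no annotation or strand setting is given in the sources used here. Lines naming no gene took 25.5%, 25.1% and 28.8% of records and were left out. A count of 0 allows up to 3 counts, or 0.209, 0.215 and 0.207 CPM, for counting error only.

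TPM values were computed from the deposited counts and merged exon lengths of GENCODE M21 (GRCm38, the assembly that mm10 denotes). Among 32531 symbols, 23161 had a length by their own name, 735 by an older one and 8635 none. Those with one held 94.6% to 97.1% of counts. Within-library differences in log2(TPM + 0.1) were tested with limma 3.58.1, intercept only with a trend, two-sided, over genes averaging at least 1 CPM. Trimmed mean of M-values (TMM) factors and dispersions came from edgeR 4.0.16, and DESeq2 1.42.0 gave alternative size factors. The software was Python 3.11.15 with matplotlib 3.10.9, NumPy 2.4.6 and pandas 2.3.3, and R 4.3.3, and the tests were tried on simulated data. Replicate pairs differed in the counts of 17606 to 17698 genes, so none was a duplicate.

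The members and the gene lists were chosen with earlier results of these data known. Genes named are the members, list genes, 11 fixed points of comparison and, per member, the 3 listed genes nearest in level. Some listed genes are not reported here and stay out of the counts and medians of their lists. Alternatives were other lengths, pseudocount 1, no filter, no trend, no moderation, other size factors and leaving out each replicate.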

Additional observations from a re-analysis of the deposited data

How the results depend on the processing

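Among the 6 differences between members, those of Vldlr and Lrp8 from Dab1 kept their direction and call under every alternative run. With coding length, Reln minus Lrp8 turned to -0.022 and Reln minus Vldlr lost its call at 0.17. Without length correction, Reln minus Dab1 lost its call at -0.16. Without moderation, Reln minus Lrp8 (0.59) lost its call. Vldlr minus Lrp8 passed the threshold with the longest transcript (-0.65). Leaving out each replicate gave -0.54 to -0.18 for Vldlr minus Lrp8, called without replicate 1. It gave 0.41 to 0.69 for Reln minus Lrp8, whose call was lost without replicate 3. Each such fit has fewer libraries and rests largely on moderation, so its calls say little, and why they changed was not tested. The pseudocount, the trend and the filter changed no call between members. Genes were paired within each library, and no comparison between groups was possible because there is 1 group only.

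Levels moved by more than 1 SD with the longest transcript, to 90.1 TPM for Reln, 46.5 for Lrp8 and 222 for Dab1. With coding length they did so to 33.9 TPM for Reln and 34.3 TPM for Lrp8. CPM is another unit, so its values cannot be set against the SD of TPM. They were 274 for Reln, 61.7 for Vldlr, 80.6 for Lrp8 and 305 for Dab1. Leaving out each replicate gave a chi-square of 1.73 to 59.7 for Vldlr, 1.76 to 11.5 for Lrp8 and 0.789 to 75.4 for Dab1, and 5499 genes varied without replicate 1, against 9620. Without length correction the genes called higher numbered 510 for Reln, 2557 for Vldlr, 2146 for Lrp8 and 471 for Dab1, against 2606, 4082, 3796 and 714. Without the filter, 12445, 10173 and 11325 genes were lower than Reln, Vldlr and Lrp8, against 8225, 5965 and 7122, with more genes near 0 entering the fit. Length is the choice on which the order of Reln and its receptors depends most, and 3 libraries limit the precision of every difference.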

Other observations

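The receptors of Reelin also bind other ligands, and the genes of these were measured in the same libraries. Clu, the secreted chaperone clusterin, had 158, 129.5 and 142 TPM and was higher than each receptor, by a log2 difference of -2.21 for Vldlr minus Clu and -1.88 for Lrp8 minus Clu (limma, adjusted p = 2.09e-05 and 3.88e-07). Reln minus Clu was -1.29, but 1.49 without length correction, where Lrp8 minus Clu lost its call at -0.27. The lipoprotein gene of astrocytes and microglia on the list, Apoe, had 8.99, 13.96 and 18.5 TPM, lower than Vldlr by 1.21 and lower than Lrp8 by 1.54 on the log2 scale (limma, adjusted p = 0.00931 and 1.73e-05, the first lost without moderation at 0.141). Selenop, a selenium carrier taken up through Lrp8, had 30.3 ± 9.28 TPM and was called different from neither receptor on merged exons (limma, adjusted p = 0.782 for Vldlr and 0.0725 for Lrp8). It was lower than Lrp8 by 0.62 on the longest transcript and 0.92 on coding length, lower than Vldlr by 0.73 on coding length, and lower than both without length correction, by 2.28 for Lrp8 and 1.89 for Vldlr.

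Lrp8 is known to join NMDA receptors and their scaffold at synapses. Of 6 synaptic genes listed, 4 were higher than Lrp8 and 1 lower, beside 30.5% and 57.2% of all genes. The higher ones were Grin1 and Dlg4, together with Cdk5 and Cdk5r1, which are neither receptor subunits nor scaffold. Grin1, the obligate NMDA receptor subunit, had 102 ± 16.5 TPM and the scaffold gene Dlg4 111 ± 12.3 TPM, log2 differences of Lrp8 minus each of -1.38 and -1.52 (limma, adjusted p = 4.21e-06 and 8.15e-07). Grin2b at 41.9 ± 6.17 TPM was not called different from Lrp8 (-0.11; limma, adjusted p = 0.537) on merged exons, with 0.51 on the longest transcript and -0.78 on coding length, and Grin2a at 10.8 ± 0.291 TPM was lower. Without length correction the difference of Lrp8 minus Cdk5, a kinase of Dab1 at 66.3 ± 10.97 TPM, was 1.51, against -0.77 with merged exons.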
